A study of Mus musculus with 8 samples.

Results

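The genes described here encode the β subunits of the Na,K-ATPase (Atp1b1, Atp1b2 and Atp1b3) and a pair of its small FXYD regulators (Fxyd1 and Fxyd6). They were picked by symbol, as 5 of the 27998 genes listed for every library, and all 5 had UMIs in each of the 8 libraries. A UMI (unique molecular identifier) marks a single captured transcript, and levels are given as counts per 1000000 UMIs (CPM) of a library or of a class of cells.

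The Na,K-ATPase is the pump that exports sodium from animal cells and imports potassium at the expense of ATP. Its catalytic α subunit needs a glycosylated β subunit to fold and to reach the plasma membrane, and cells can use β subunits encoded by different genes. FXYD proteins cross the membrane once, associate with the pump and adjust its affinity for ions. Fxyd1 encodes phospholemman, and Fxyd6 a family member known from brain and inner ear. In the cochlea the pump is best known for sustaining the ion gradients behind the high-potassium endolymph that bathes the hair bundles.

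Organs of Corti, from which the lateral walls had been removed by dissection, were profiled by 3′ droplet single-cell RNA-seq at postnatal day 12 (Coch P12, n = 2 libraries), day 26 (Coch + Tmx P26, n = 3) and day 33 (Coch + Tmx P33, n = 2; Coch P33, n = 1). All animals, controls included, carried Fgfr3iCre+ and Atoh1-HA+ together with Chrna9-GFP+, and on top of these Rosa26-CAG-loxP-stop-loxP-tdTomato+, a combination in which the Fgfr3-driven inducible Cre acts in Deiters' and pillar supporting cells (SCs) and switches on the CAG-driven Atoh1-HA and tdTomato, while GFP reports Chrna9. Tamoxifen at P12 and P13 started this only in the groups named Tmx, so age and induction overlap and no P12 library was induced. P-values measure the spread between libraries.

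Library depth ranged from 3972800 to 13423524 UMIs, and 5982 of 8061 barcodes were kept. No pair of libraries shared more than 3 barcodes. Atoh1, the induced gene, stood at 176, 90.9 and 12.4 CPM in replicates 1, 2 and 3 of Coch + Tmx P26 and at 526 and 418 CPM in Coch + Tmx P33, against 17.7 and 23.4 CPM in Coch P12 and 17.3 CPM in Coch P33. The library labelled Coch + Tmx P26 replicate 3 therefore did not stand above the uninduced libraries, and values with and without it are given where it entered a call. Cells were sorted into 31 clusters without the genes described here, and clusters with enough listed markers were placed in 15 classes, called HC-like (hair cells), cHC-like (Atoh1-converted hair cells), SC-like and so on. Small or mixed classes limit the account. The HC-like class held 63 cells, and the cluster led by Otol1 and Tspan8 in the nonsensory epithelial-like class also carried 7 listed SC-like markers. One stromal-like cluster, led by Cemip, also carried cartilage and bone genes. The class that met the minimum for mural cells was 1 cluster of 141 cells led by Opcml, Pou3f1 and Sned1, nearly all from Coch P12. The mural markers Rgs5, Acta2, Myh11 and Tagln were at 0 there in both P12 libraries, and its mural list, at 646 and 512 CPM, lay within the 491 to 841 CPM of stromal-like cells. Its stromal list summed to 4548 and 3929 CPM, so it is called the Opcml cluster below. The glia-like class joined 3 unlike clusters of 45, 53 and 17 cells.

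In the RefSeq annotation of GRCm38.p6, the build also called mm10, Atp1b1 (ENSMUSG00000026576) lies at chr1:164437099-164458355 and overlaps the neighbouring gene Nme7 by 202 bases. Nme7 had between 10.0 and 14.8 CPM per library, far below Atp1b1. Atp1b2 (ENSMUSG00000041329) lies at chr11:69599728-69605978, Atp1b3 (ENSMUSG00000032412) at chr9:96332655-96364431 and Fxyd6 (ENSMUSG00000066705) at chr9:45369470-45396159. Fxyd1 (ENSMUSG00000036570), at chr7:31051678-31055873, lies wholly within the span of another annotated gene, Gm38984. This may make its count less certain than the others, but whether the overlap affects it was not tested.

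Over all cells of a library, Fxyd6 and Atp1b1 were the most abundant. Fxyd6 ranged from 348 to 625 CPM (median 470) and Atp1b1 from 258 to 607 CPM (median 466), with both P12 libraries lowest for Atp1b1. Fxyd1 ranged from 187 to 306 CPM (median 215), Atp1b3 from 135 to 269 CPM (median 199) and Atp1b2 from 67.3 to 177 CPM (median 124). Such whole-library values mix the level within cells with the make-up of the library, and a smaller number of cells of a type cannot be told apart from less RNA per cell, so the classes are described one by one.

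Atp1b1, which encodes the most widely used β subunit, was highest in neuron-like and nonsensory epithelial-like cells. In neuron-like cells it reached 3032 and 3139 CPM in Coch + Tmx P33, 2940 CPM in Coch + Tmx P26 replicate 1 and 2892 CPM in Coch P33, the 4 libraries with at least 10 such cells. Nonsensory epithelial-like cells, which line the sulcus beside the sensory strip, came next, with a range of 1048 to 1589 CPM over 8 libraries (median 1222), wholly below the neurons. HC-like, Reissner-like and cHC-like cells followed at 547, 448 and 334 CPM over all cells of the class, and neither HC-like and Reissner-like nor Reissner-like and cHC-like cells differed beyond the spread of their libraries. SC-like cells held 163 CPM, with 95.2 to 205 CPM over 5 libraries, below every cHC-like library (272 to 407 CPM).

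All other classes held under 70 CPM of Atp1b1, from the Opcml cluster at 68.98 CPM down to neutrophil-like cells at 13.2 CPM, and their library ranges overlapped from one rank to the next. To remove the effect of depth, each cell was thinned to 1000 UMIs. An Atp1b1 UMI was then seen in 92.7% of neuron-like and 65.8% of nonsensory epithelial-like cells (100% and 97.6% before thinning), against 2.78% of neutrophil-like cells (8.33% before thinning), blood cells taken as the background of free RNA. Median depth was 22071 UMIs per cell in neuron-like, 6970 in nonsensory epithelial-like and 4529 in neutrophil-like cells.

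**Figure D1:**
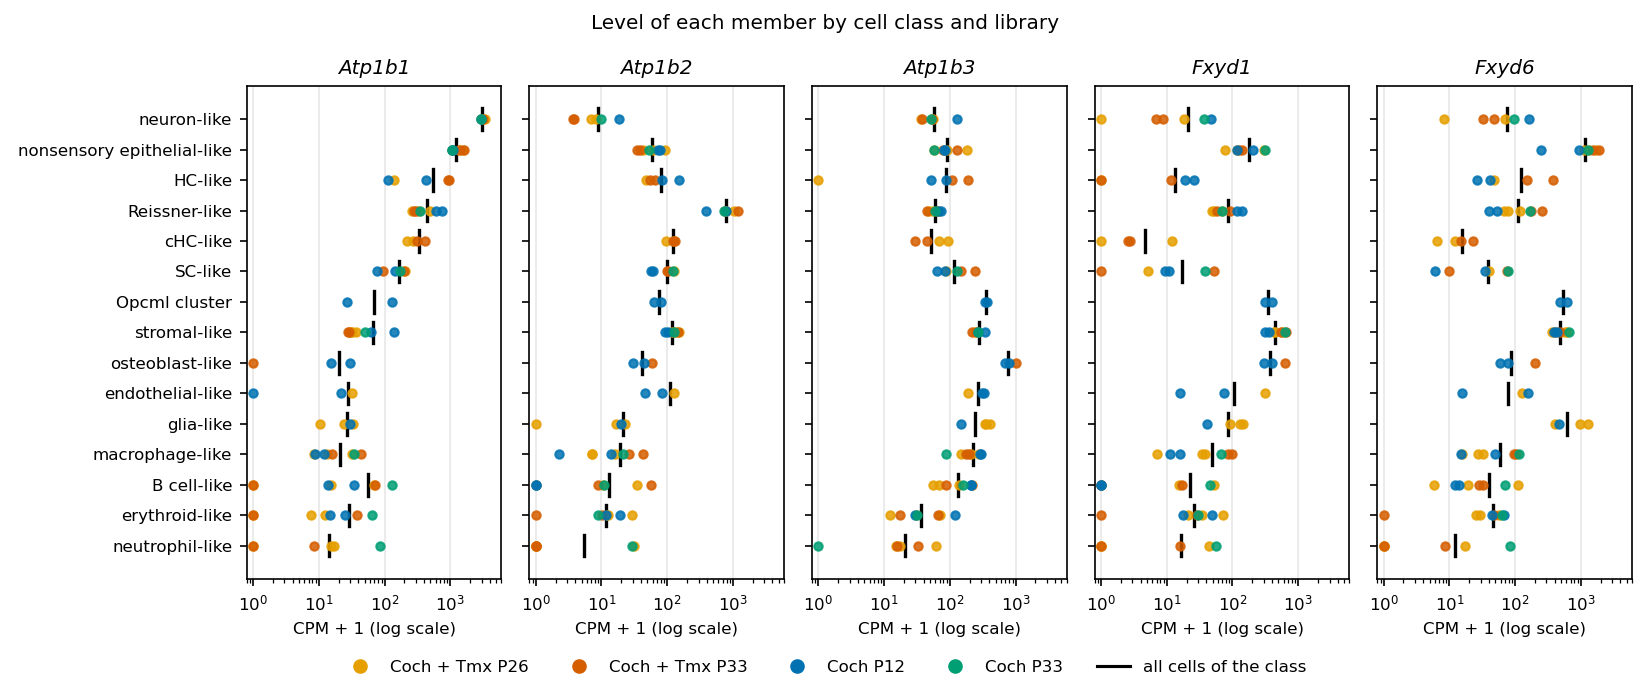
Level of the 5 genes in 15 classes of cells (the Opcml cluster among them), as CPM plus 1 on a log axis, with a point for each library that held at least 5 cells of the class and a bar for all cells of the class together. Atp1b1 peaked in neuron-like cells at 3025 CPM, Atp1b2 in Reissner-like cells at 795 CPM, Atp1b3 in osteoblast-like cells at 756 CPM, Fxyd1 in stromal-like cells at 450 CPM and Fxyd6 in nonsensory epithelial-like cells at 1171 CPM.

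Atp1b2, whose product was first described as an adhesion molecule on glia, had a single high class. Reissner-like cells, which form the thin membrane between scala media and scala vestibuli, held 385 to 1175 CPM over 8 libraries (median 771). Every one of these values lay above every library of the other classes. The next classes, cHC-like at 120 CPM, stromal-like at 116, endothelial-like at 110 and SC-like at 99.9 CPM, were close to each other. Glia-like cells held only 20.2 CPM and neuron-like cells 7.91 CPM. After thinning, 50.0% of Reissner-like cells had an Atp1b2 UMI (95.3% before thinning) against 11.3% of stromal-like (43.9%) and 0.89% of macrophage-like cells (7.65%).

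Atp1b3 was highest in osteoblast-like cells. Osteoblast-like cells held 805 and 697 CPM in the P12 libraries, the only ones with at least 10 of these cells. The Opcml cluster at 352 CPM, stromal-like cells at 274 CPM with a range of 213 to 341 CPM, endothelial-like cells at 270, glia-like cells at 243 and macrophage-like cells at 224 CPM came next, and from stromal-like to macrophage-like cells neighbours in this order overlapped. SC-like cells held 117 CPM, HC-like cells 86.1, Reissner-like cells 59.5, neuron-like cells 56.3 and cHC-like cells 51.3 CPM. The share of thinned cells with a UMI was 52.4% in osteoblast-like cells, 22.9% in stromal-like and 17.6% in macrophage-like cells against 2.78% in neutrophil-like cells (93.9%, 69.6%, 68.3% and 12.5% before thinning).

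Among the classes, Fxyd1 was highest in stromal-like cells. Its level was 316 to 640 CPM over the 8 stromal-like libraries, and osteoblast-like cells and the Opcml cluster, at 368 and 349 CPM, fell within that range. The glia-like clusters were unequal, at 500.2 CPM in the one of 45 cells and at 11.8 and 17.4 CPM in those of 53 and 17 cells. Nonsensory epithelial-like cells held 176 CPM, with a wide range of 75.9 to 311 CPM. In the sensory strip Fxyd1 was near the background, at 16.1 CPM in SC-like, 12.5 in HC-like and 3.66 CPM (6 UMIs) in cHC-like cells, where neutrophil-like cells held 15.4 CPM.

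Fxyd6 was highest in nonsensory epithelial-like cells, at 1171 CPM over all cells, but its libraries spread from 246 to 1880 CPM. Glia-like cells at 604, the Opcml cluster at 532 and stromal-like cells at 477 CPM followed, and neighbours overlapped down to the stromal-like class. HC-like and Reissner-like cells held 124 and 111 CPM, and SC-like and cHC-like cells 38.3 and 14.7 CPM. As with Fxyd1, the cHC-like value was near that of neutrophil-like cells (11.01 CPM). Fxyd6 UMIs were seen in 48.4% of thinned nonsensory epithelial-like, 37.4% of glia-like and 36.9% of stromal-like cells but in 1.71% of cHC-like and 4.17% of neutrophil-like cells (77.2%, 67.0%, 80.0%, 17.9% and 6.94% before thinning).

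Within classes, Fxyd6 differed from cluster to cluster. The glia-like clusters of 45, 53 and 17 cells held 3778, 28 and 249 CPM, so the class value depends on the share of each. Of the nonsensory epithelial-like cells, the cluster led by Ucma and Epyc (283 cells) held 2099 CPM and the Otol1 cluster (215 cells) 237 CPM.

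A cluster led by Otos, Hhatl, Kcnk2 and Ppp1r1b (135 cells) combined high levels of several of these genes. It was given no cell type name, since only 2 listed markers of any class counted as detected under the rule for naming clusters. It had 1659 to 2938 CPM of Atp1b1 over 8 libraries, and over all its cells 2364 CPM of Atp1b1, 623 CPM of Atp1b3, 312 CPM of Fxyd1 and 2433 CPM of Fxyd6. Otos encodes otospiralin, which is made by fibrocytes of the cochlea.

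**Figure D2:**
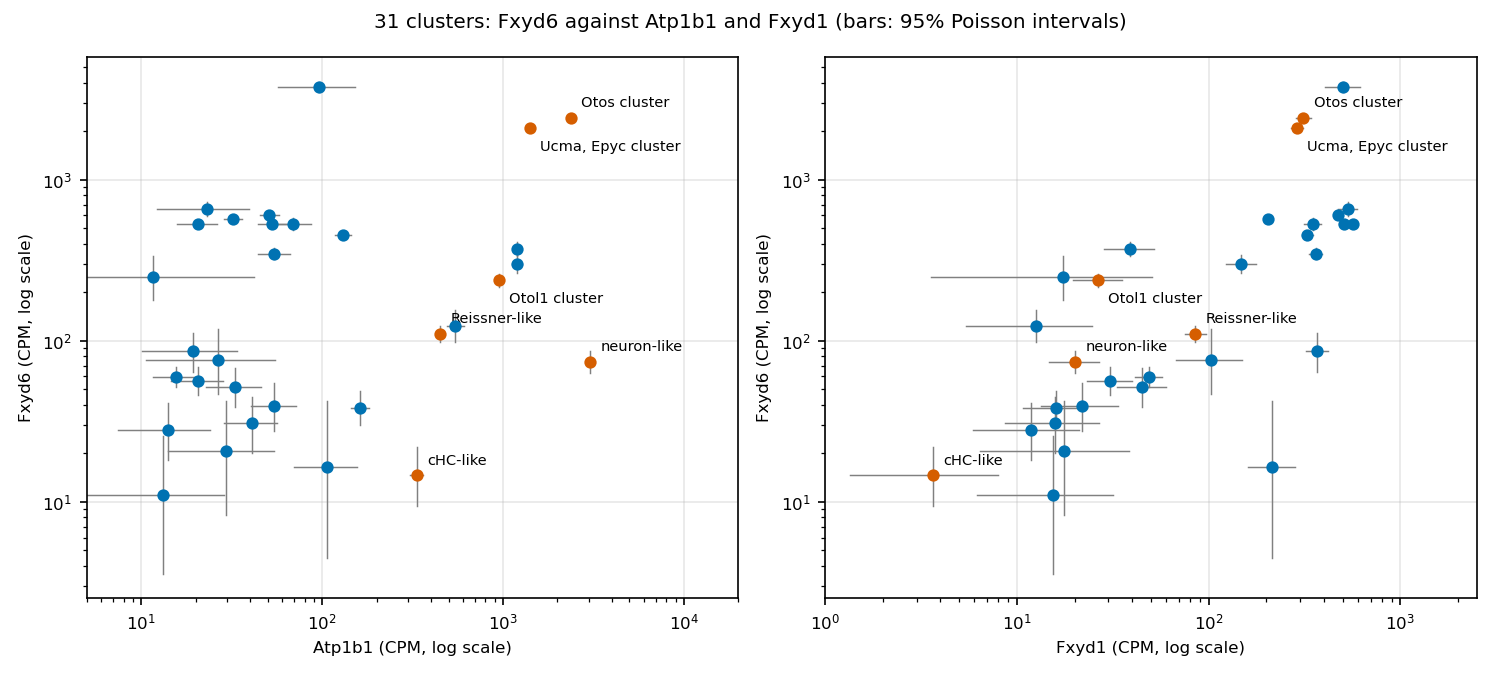
Fxyd6 against Atp1b1 (left) and against Fxyd1 (right) in 31 clusters of cells, each axis in CPM on a log scale, with 95% Poisson intervals that cover counting error only. The Otos cluster (Fxyd6 2433 CPM) and the Ucma cluster (2099 CPM) stand near the top, and the cHC-like cluster (14.7 CPM) near the bottom. Orange points are the clusters named in the plot.

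The 3 β genes were then set against each other within each class, as shares of their summed UMIs. Each UMI counts a single captured 3′ end and is not scaled by transcript length, and how well each gene's end is captured is unknown, so shares were compared between classes and not read as protein ratios. Atp1b1 made up 97.9% of β UMIs in neuron-like cells and 89.2% in nonsensory epithelial-like cells, and led in every library of both. Atp1b2 led in Reissner-like cells with 61.0% (Atp1b1 34.4%), in 7 of 8 libraries. Atp1b3 led in osteoblast-like (92.6%), macrophage-like (85.5%), glia-like (84.1%) and stromal-like cells (60.1%) and in the Opcml cluster (71.3%), in each of their libraries. In SC-like cells of all libraries together Atp1b1 made up 42.9%, Atp1b2 26.4% and Atp1b3 30.7%, but libraries differed. Atp1b1 led in 3 of the 5 libraries with at least 10 of these cells (55.2% in Coch P12 replicate 1, 49% in Coch + Tmx P26 replicate 3 and 41.3% in Coch P33), and Atp1b3 led in both Coch + Tmx P33 libraries (45% and 42.6%). In cHC-like and HC-like cells of all libraries together the Atp1b1 share was 66.1% and 76.7%. HC-like libraries differed, from 32.1% in Coch P12 replicate 2 (6 cells), where Atp1b2 led with 42.9%, to 85.5% in Coch + Tmx P33 replicate 2 (7 cells). Only Coch P12 replicate 1, at 76.4%, held at least 10 HC-like cells.

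**Figure D3:**
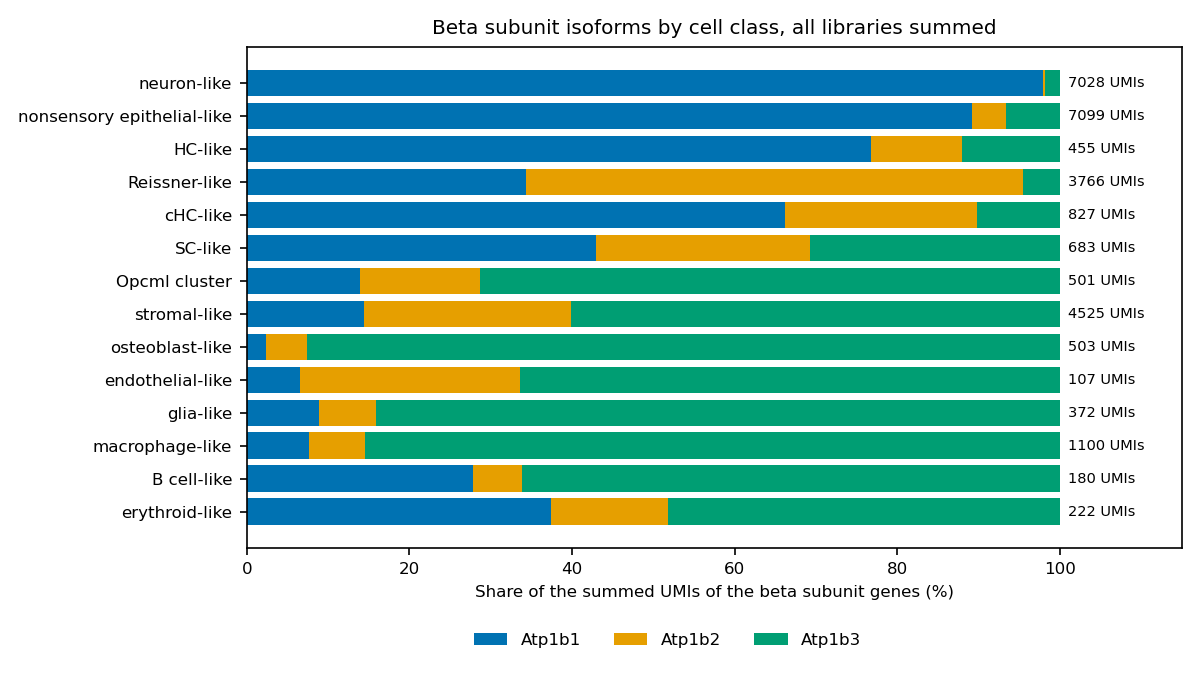
Shares of Atp1b1, Atp1b2 and Atp1b3 in their summed UMIs, in percent, for the 14 classes with at least 100 such UMIs. Bars run from almost wholly Atp1b1 in neuron-like cells (97.9%) through Atp1b2-led Reissner-like cells (61.0%) to almost wholly Atp1b3 in osteoblast-like cells (92.6%).

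Single cells often held more than 1 β gene. UMIs of at least 2 were found in 85.5% of Reissner-like, 74.4% of SC-like, 69.2% of cHC-like and 67.7% of neuron-like cells, but in 12.3% of macrophage-like cells. These shares were not thinned and rise with depth, which had medians of 7669, 14208, 13077, 22071 and 6053 UMIs per cell in that order.

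Of 21 exact paired permutation tests (2-sided, over libraries) of a β share between classes, 7 passed after Benjamini-Hochberg adjustment, each at an adjusted p of 0.0234 and each in the same direction in 8 of 8 libraries. Nonsensory epithelial-like cells had 78.4 points more Atp1b1, 24.8 points less Atp1b2 and 53.6 points less Atp1b3 than stromal-like cells (SD of the library differences 8.02, 7.74 and 5.11 points). Reissner-like cells had 56.1 points less Atp1b1 and 57.9 points more Atp1b2 than nonsensory epithelial-like cells (SD 15.1 and 15.5 points). Macrophage-like cells had 21.8 points less Atp1b2 and 23.1 points more Atp1b3 than stromal-like cells (SD 5.76 and 12.5 points). Leaving out any library kept the count at 7. The smallest p that 8 libraries allow is 0.0078. Comparisons within the sensory strip, with 2 to 4 libraries, and of neuron-like with glia-like cells, with 2, could not reach 0.05. The Atp1b1 share differed by 91.6 points between neuron-like and glia-like cells.

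The comparison of cHC-like with SC-like cells asks how the pump genes differ between converted cells and SCs, the cells in which the transgene was switched on. It rested on both Coch + Tmx P33 libraries, where the converted class held 42 and 39 cells and the SC-like class 16 and 12. Atp1b1 was at 407 and 310 CPM in cHC-like cells against 199 and 95.2 CPM in SC-like cells. Atp1b3 went the other way, at 44.3 and 28.7 CPM against 244 and 147 CPM. Neither gene's groups overlapped, but nor did those of Atp1b2, which was not called (below). By edgeR's quasi-likelihood test with library as a block, adjusted over all genes, Atp1b1 was higher (log2 fold change 1.30, SE 0.28, adjusted p = 2.45e-05) and Atp1b3 lower (log2 fold change -2.39, SE 0.34, adjusted p = 6.44e-11). With 2 libraries this fit leaves each gene 1 residual degree of freedom, and edgeR borrows the estimate of spread from all genes. Atp1b2, at 122 and 133 CPM against 99.4 and 103 CPM, did not pass (log2 fold change 0.34, SE 0.33, adjusted p = 0.448 by edgeR), and Fxyd1 and Fxyd6 fell under the filter on low counts. Thus 2 of the 3 genes tested were called, where 37.6% of all 5778 genes tested were. With DESeq2 only Atp1b3 was called (adjusted p of Atp1b1 0.195 by DESeq2). With cells under 10% mitochondrial UMIs neither Atp1b1 nor Atp1b3 was (log2 fold change 0.75 and -1.08, adjusted p = 0.184 and 0.0524 by edgeR). In shares, Atp1b1 made up a mean of 68.4% ± 3.69 (SD, n = 2) of β UMIs in converted cells and 32.2% ± 6.37 in SC-like cells. The Atp1b3 share was 6.91% ± 1.17 and 43.8% ± 1.73. In Coch + Tmx P26, cHC-like cells held 272 CPM (replicate 1, 30 cells) and 216 CPM (replicate 2, 6 cells) of Atp1b1. Their Atp1b3, at 94.4 and 68.2 CPM, was not below that of SC-like cells in other libraries outside P33. Those SC-like values were 85.6 CPM in Coch + Tmx P26 replicate 3 and 62.5 and 84.4 CPM in Coch P12. The lower Atp1b3 of converted cells thus rests on Coch + Tmx P33.

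Endogenous hair cells were compared with SCs in the 4 libraries that held at least 5 cells of each. Atp1b1 in HC-like cells was at 912 and 955 CPM in Coch + Tmx P33 and at 429 and 112 CPM in Coch P12, against 199 and 95.2 CPM and 145 and 75.9 CPM in SC-like cells. It was higher in HC-like cells in 4 of 4 libraries (log2 fold change 2.01, SE 0.42, adjusted p = 0.0106 by edgeR's quasi-likelihood test). Fxyd6 was at 148, 379, 41.1 and 24.9 CPM in HC-like cells, in the same order, against 9.03, 73.3, 5.00 and 33.7 CPM, higher in 3 of 4 (log2 fold change 2.40, SE 0.57, adjusted p = 0.0166 by edgeR). These were 2 of 4 genes tested, where 28.6% of all genes tested were called. Atp1b2 (log2 fold change 0.14, SE 0.43, adjusted p = 0.828 by edgeR) and Atp1b3 (log2 fold change -0.28, SE 0.27, adjusted p = 0.453) did not pass.

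The HC-like cells of Coch + Tmx P33, 7 in each library, carried markers of their neighbours. The 12 listed HC markers summed to 8672 and 5678 CPM there, against 25432 and 37144 CPM in Coch P12, while the SC-like list summed to 13146 and 19334 CPM against 6263 and 3678 CPM, and the nonsensory epithelial-like list to 5555 and 6111 CPM against 1777 and 224 CPM. Their part in the Atp1b1 and Fxyd6 values was not tested. In both P12 libraries alone, Atp1b1 was still higher in HC-like cells (log2 fold change 1.30, SE 0.43, adjusted p = 0.00791 by edgeR), and Fxyd6 fell under the filter on low counts. Without Coch P12 replicate 1 neither gene was called (adjusted p = 0.0526 and 0.0849 by edgeR), nor with finer clusters at Leiden resolution 1.5, where the log2 fold change of Atp1b1 was 0.76 (adjusted p = 0.594).

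Between converted and endogenous hair cells, Fxyd6 differed. In cHC-like cells of Coch + Tmx P26 replicate 1 and the Coch + Tmx P33 pair it was at 5.55, 14.2 and 21.5 CPM, and in HC-like cells of the same libraries at 46.9, 148 and 379 CPM, lower in 3 of 3 (log2 fold change -3.54, SE 0.49, adjusted p = 0.00624 by edgeR's quasi-likelihood test). In Coch + Tmx P26 replicate 1 the values were 2 UMIs against 1 UMI, under the floor of 3 counts, and give no sure direction. The HC-like values of both Coch + Tmx P33 libraries come from the cells that carried markers of other classes. Without Coch + Tmx P33 replicate 1 or 2 the call was lost (adjusted p = 0.0945 and 0.0903 by edgeR). Atp1b2, at 94.4, 122 and 133 CPM in converted cells, lay above its HC-like values of 46.9 (1 UMI), 63.6 and 54.1 CPM without overlap but did not pass (log2 fold change 1.30, adjusted p = 0.121 by edgeR). Atp1b1 and Atp1b3 did not pass either (log2 fold change -0.62 and -1.17, adjusted p = 0.572 and 0.326 by edgeR). Without Coch + Tmx P26 replicate 1, whose HC-like sum came from 5 cells, both were called lower in cHC-like cells (log2 fold change -1.29 and -1.92, adjusted p = 0.00028 and 0.00212 by edgeR). The 1 gene of 4 called in the full comparison stood beside 7.88% of all genes tested.

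In 2 Coch + Tmx P26 libraries neurons could be set against glia. Atp1b1 was at 2940 and 3429 CPM in neuron-like and 23.0 and 32.7 CPM in glia-like cells (log2 fold change 6.57, SE 0.54, adjusted p = 8.51e-31 by edgeR). Atp1b3, at 55.3 and 36.0 CPM against 414 and 337 CPM, was lower in neuron-like cells (log2 fold change -3.05, SE 0.48, adjusted p = 2.72e-09 by edgeR). Fxyd6, at 69.9 and 7.20 CPM against 1266 and 985 CPM, was also lower (log2 fold change -4.81, SE 0.48, adjusted p = 1.15e-21 by edgeR), and so was Fxyd1, at 17.5 and 0 CPM against 92.0 and 141 CPM (log2 fold change -3.39, SE 0.78, adjusted p = 6.74e-05 by edgeR, 0.179 by DESeq2). All 4 members tested were called (Atp1b2 fell under the filter on low counts), where 46.7% of genes tested were. The smallest sums behind these values held 11 glia-like cells in replicate 1 and 7 neuron-like cells in replicate 2, and each gene again had 1 residual degree of freedom. Of the glia-like cells, 7 of 11 and 15 of 29 came from the cluster with 3778 CPM of Fxyd6, while the cluster with the lowest level (28 CPM) lay below the neuron-like class as a whole (74.3 CPM). The part of this mixture in the Fxyd6 and Fxyd1 differences was not tested.

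**Figure D4:**
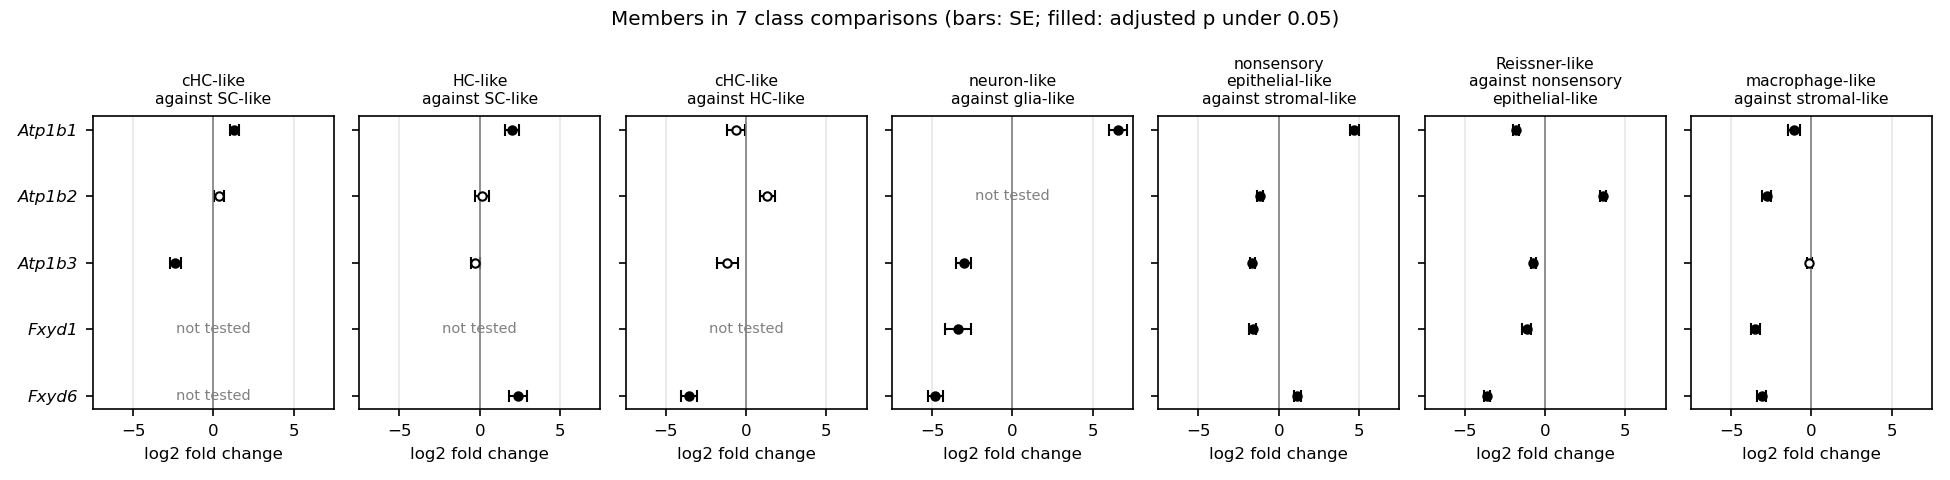
Log2 fold change (horizontal axis) with its standard error for the 5 genes in 7 comparisons of classes, filled where the adjusted p of edgeR's quasi-likelihood test was below 0.05 and marked where a gene was not tested. Atp1b1 was higher in cHC-like (1.30) and HC-like cells (2.01) than in SC-like cells, and Atp1b3 was lower in cHC-like than in SC-like cells (-2.39). The values for cHC-like against SC-like cells are from Coch + Tmx P33 alone.

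The remaining class comparisons used all 8 libraries. In stromal-like cells Atp1b1 ranged from 26.5 to 136 CPM (median 33.7) and Atp1b2 from 92.6 to 152 CPM (median 125), and in nonsensory epithelial-like cells Atp1b2 ranged from 34.1 to 91.3 CPM (median 56.5) and Atp1b3 from 56.9 to 179 CPM (median 81.2). Fxyd6 ranged from 361 to 660 CPM (median 458) in stromal-like and had a median of 1324 CPM in nonsensory epithelial-like cells, and Fxyd1 had medians of 494 and 132 CPM. Against stromal-like cells, nonsensory epithelial-like cells had higher Atp1b1 in 8 of 8 libraries (log2 fold change 4.70, SE 0.28, adjusted p = 7.02e-10 by edgeR's quasi-likelihood test) and higher Fxyd6 in 7 of 8 (1.15, SE 0.22, adjusted p = 0.000317 by edgeR). The exception was Coch P12 replicate 1, at 246 against 391 CPM. Atp1b2, Atp1b3 and Fxyd1 were lower in 8 of 8 without overlap (log2 fold change -1.17, -1.65 and -1.64, adjusted p = 4.13e-05, 3.54e-07 and 4.59e-06 by edgeR). All 5 were called, beside 55.4% of all genes tested.

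Reissner-like cells, the other epithelium of scala media, ranged from 260 to 747 CPM of Atp1b1 (median 343), 43.7 to 73.1 CPM of Atp1b3 (median 61.1), 47.9 to 140 CPM of Fxyd1 (median 68.5) and 39.1 to 258 CPM of Fxyd6 (median 97.3). They had higher Atp1b2 than nonsensory epithelial-like cells in 8 of 8 libraries (log2 fold change 3.60, SE 0.21, adjusted p = 1.35e-11 by edgeR). The other members were lower. Atp1b1 (log2 fold change -1.80, SE 0.20, adjusted p = 2.29e-07 by edgeR) and Fxyd6 (-3.62, SE 0.20, adjusted p = 3.83e-12) differed most, and Fxyd1 (-1.15, adjusted p = 0.000999) and Atp1b3 (-0.72, adjusted p = 0.00146) least. All 5 were called, where 45.8% of genes tested were.

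In macrophage-like cells Atp1b1 ranged from 7.46 to 43.4 CPM (median 13.6), Atp1b2 from 1.29 to 42.2 CPM (median 13.99) and Atp1b3 from 86.8 to 292 CPM (median 205). They had lower Atp1b2, Fxyd1 and Fxyd6 than stromal-like cells in 8 of 8 libraries without overlap (log2 fold change -2.79, -3.51 and -3.10, adjusted p = 2.76e-07, 9.92e-09 and 6.8e-08 by edgeR's quasi-likelihood test). Atp1b1 was lower in 6 of 8 (log2 fold change -1.10, SE 0.38, adjusted p = 0.0184 by edgeR), a call lost without Coch P12 replicate 1 (adjusted p = 0.0628) or replicate 2 (adjusted p = 0.0967). Atp1b3 did not pass (-0.13, SE 0.17, adjusted p = 0.55 by edgeR). The 4 of 5 called stood beside 58.3% of genes tested. Stromal markers in the macrophage-like sums added up to between 173 and 1396 CPM, with 8 or 9 of 9 markers at 1 UMI or more, and their part in the Fxyd1 and Fxyd6 levels there (6.12 to 96.1 CPM, median 35.7, and 14.2 to 113 CPM, median 40.0) was not tested. Without the library labelled Coch + Tmx P26 replicate 3, these 8-library comparisons called 5, 5 and 4 members as before.

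Changes with age were tested class by class, Coch P12 against the mean of the later groups. In stromal-like cells Atp1b1 was at 61.1 and 136 CPM at P12, against 26.5 to 49.6 CPM in 6 later libraries, without overlap (log2 fold change 1.36, SE 0.29, adjusted p = 0.0278 by edgeR's quasi-likelihood test). This call was lost without Coch + Tmx P26 replicate 2, Coch + Tmx P33 replicate 1 or 2, or Coch P12 replicate 2, and without the last the log2 fold change was 0.60 (adjusted p = 0.257). It was kept without the library labelled Coch + Tmx P26 replicate 3. Fxyd1, at 316 and 361 CPM against 425 to 640 CPM, did not pass (log2 fold change -0.87, SE 0.24, adjusted p = 0.0788 by edgeR). The 1 of 5 stood beside 2.7% of genes tested. The class was made up of different clusters at the 2 ages, led by Cemip and by Col15a1 at P12 and by Dcn with Ccl11 and Fst with Inmt later, and markers of other cells moved as well. In stromal-like cells of Coch P12 replicate 2, which held the most Atp1b1, the nonsensory epithelial-like list summed to 353 CPM, against 37.7 to 195 CPM in the other libraries, and the glia-like list to 2306 CPM, against 238 to 1255 CPM. The chondrocyte list was at 1214 and 2403 CPM at P12 and no higher than 851 CPM in any later library. The part of these shifts in the difference was not tested.

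In Reissner-like cells, a comparison added after the data were seen, 2 of 5 members were called, beside 2.05% of genes tested. Fxyd6 was at 39.1 and 51.6 CPM at P12, 76.9, 67.1 and 118 CPM in Coch + Tmx P26, 258 and 174 CPM in Coch + Tmx P33 and 165 CPM in Coch P33, so that the P12 libraries were the lowest (log2 fold change -1.68, SE 0.30, adjusted p = 0.00235 by edgeR). The difference from P12 was called for Coch + Tmx P33 (log2 fold change -2.22, adjusted p = 0.000686 by edgeR) and for the uninduced Coch P33 (-1.90, adjusted p = 0.0307) but not for Coch + Tmx P26 (-0.92, adjusted p = 0.268). Atp1b1 went the other way, at 747 and 602 CPM at P12 against 260 to 499 CPM later (log2 fold change 0.98, SE 0.23, adjusted p = 0.0237 by edgeR), a call lost without Coch + Tmx P33 replicate 1 or 2 or Coch P12 replicate 1 (adjusted p = 0.053, 0.0545 and 0.204). Without Coch P12 replicate 2, Atp1b2 was called too (log2 fold change -1.14, adjusted p = 0.0275 by edgeR). Both calls were kept without the library labelled Coch + Tmx P26 replicate 3.

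No member was called with age in nonsensory epithelial-like cells, where 1.13% of genes tested were, and none in macrophage-like cells, where 0.129% were. By edgeR's unadjusted p under 0.05, 1 member (Fxyd6) passed in the former and 4 (Atp1b1, Atp1b3, Fxyd1 and Fxyd6) in the latter. The share of all genes under that unadjusted threshold is not given, so these counts cannot be read as above the background. DESeq2 called none after adjustment in either. Fxyd6 in nonsensory epithelial-like cells was at 246 and 939 CPM at P12 against 1123 to 1880 CPM later (log2 fold change -1.41, SE 0.51, adjusted p = 0.258 by edgeR), and only 4 of 283 Ucma cells came from Coch P12 replicate 1. In the Otol1 cluster alone, a choice made after seeing the data, Fxyd6 was at 43.4 and 39.0 CPM at P12 against 200 to 792 CPM in 5 later libraries, all labelled as induced (log2 fold change -3.34, SE 0.52, adjusted p = 0.00875 by edgeR). Coch + Tmx P26 replicate 3, with 8 cells, was under the minimum of 10 and did not enter this fit, nor did Coch P33. Age and induction cannot be told apart in it. In macrophage-like cells Fxyd1 was at 10.4 and 14.9 CPM at P12, 6.12 to 37.8 CPM in Coch + Tmx P26 and 66.8 to 96.1 CPM in the 3 P33 libraries (log2 fold change -2.18, SE 0.55, adjusted p = 0.172 by edgeR, and 0.0116 without Coch + Tmx P26 replicate 1). Stromal markers were highest, at 1396 CPM, in Coch + Tmx P33 replicate 1, which also held the most Fxyd1.

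In SC-like cells of Coch + Tmx P33 against Coch P12, 1 of 5 members was called, beside 6.2% of genes tested. Atp1b3 was at 244 and 147 CPM in Coch + Tmx P33 and at 62.5 and 84.4 CPM in Coch P12 (log2 fold change 1.49, SE 0.45, adjusted p = 0.0393 by edgeR's quasi-likelihood test). The uninduced Coch P33 library lay between, at 125 CPM, and age and induction cannot be told apart here. The library labelled Coch + Tmx P26 replicate 3 also entered the estimate of spread, and the call was kept without it. The call was lost with DESeq2 (adjusted p = 0.673) and without Coch + Tmx P33 replicate 1 or Coch P12 replicate 1 (adjusted p = 0.649 and 0.271 by edgeR). With Leiden resolution 1.5 Atp1b3 was not called (adjusted p = 0.0789 by edgeR) and Atp1b1, at 0.35 (SE 0.44) otherwise, was lower in Coch + Tmx P33 (log2 fold change -2.01, adjusted p = 0.00446).

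**Figure D5:**
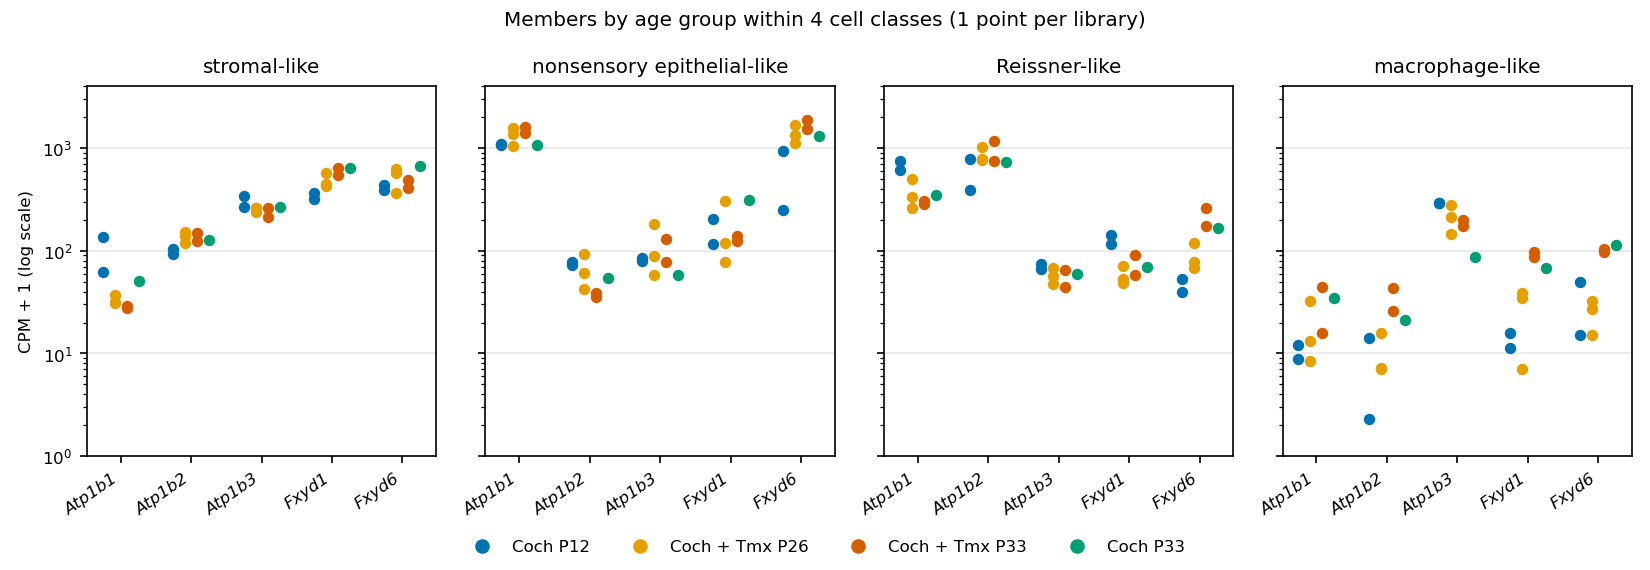
CPM plus 1 of the 5 genes on a log axis, with a point for each library coloured by group, in stromal-like, nonsensory epithelial-like, macrophage-like and Reissner-like cells, for libraries with at least 10 cells of the class. Reissner-like Fxyd6 runs from 39.1 and 51.6 CPM at P12 to 258 and 174 CPM in Coch + Tmx P33, while stromal-like Atp1b1 is highest in both P12 libraries (61.1 and 136 CPM).

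The β shares moved with these levels, but none of 12 exact permutation tests (2-sided, 2 against 6 libraries, smallest possible p 0.0357) passed after adjustment, the lowest adjusted p being 0.107. At that smallest unadjusted p stood 4 of the 12. In Reissner-like cells the Atp1b1 share was 51.9% ± 14.8 at P12 and 27.0% ± 6.53 later (SD, exact p = 0.0357), and the Atp1b2 share 42.9% ± 15.1 and 68.6% ± 6.33 (exact p = 0.0357). In stromal-like cells the Atp1b1 share was 19.7% ± 10.4 and 8.03% ± 1.73 (exact p = 0.0357), and the Atp1b2 share 19.6% ± 1.19 and 32.2% ± 3.40 (exact p = 0.0357). Whether an age difference itself differed between classes was also put to exact permutation tests, of which none of 30 passed (lowest adjusted p = 0.179). The smallest possible p of each was again 0.0357 before adjustment, and some stood at it. With that floor these tests could hardly pass, so no likeness of age differences between classes is read from them.

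The genes whose levels were most like each member were taken over the means of 15 classes, among 9622 genes, by Pearson's r of log2(CPM + 1). This is a description over points that share libraries. For Atp1b1 they included 2310061I04Rik (r = 0.93), Epn3 (0.92), Epb41l4b (0.92) and Car12 (0.91), which encodes a carbonic anhydrase. For Atp1b2 they were Vmac (r = 0.92), Ephx1 (0.91), Fkbp9 (0.90), Socs2 (0.89) and Zfand6 (0.89). For Atp1b3 they were P4ha1 (r = 0.93), which encodes a collagen prolyl hydroxylase, Homer3 (0.92), Cnpy4 (0.90), Ndnl2 (0.90) and Cbr3 (0.90). For Fxyd1 they included Tnfrsf19 (r = 0.92), Snhg18 (0.91), P3h3 (0.90) and Copz2 (0.89), and Fxyd6 was most like Bmp4 (0.85), Dkk3 (0.85), Vldlr (0.81), Fgfr2 (0.81) and Grb14 (0.80). Among the members themselves, r was 0.78 for Fxyd1 with Fxyd6, 0.71 for Fxyd1 with Atp1b3 and -0.38 for Atp1b1 with Atp1b3.

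A list of 25 other genes of ion transport (further FXYD and β genes, potassium channels, cation-chloride cotransporters, calcium pumps, exchangers and the Nkain proteins that bind β subunits) was counted in the same fits. In cHC-like against SC-like cells, 3 of 9 tested were higher and 4 lower, the plasma membrane calcium pumps Atp2b4 and Atp2b2 by 8.20 and 7.93 and the sodium-calcium exchanger Slc8a2 by 3.41 on the log2 scale, while the potassium channel Kcnj10 fell by 4.40 (list median 0.40, all genes 0.11). HC-like cells had 4 of 8 higher than SC-like cells, among them Atp2b2 (log2 fold change 5.86) and Fxyd3 (3.41), and none lower (list median 0.98, all genes -0.07). From HC-like to cHC-like cells 3 of 10 were lower and none higher, Fxyd3 by -4.11, Kcnj10 by -4.03 and the potassium-chloride cotransporter Slc12a7 by -2.58 on the log2 scale (list median -0.78, all genes 0.13). Both comparisons with HC-like cells used the Coch + Tmx P33 sums that carried SC-like and nonsensory epithelial-like markers. The part of those markers' cells in the Fxyd3, Kcnj10 and Slc12a7 values was not tested. Neuron-like against glia-like cells had 4 of 8 higher and 3 lower, among them Atp2b2 (9.34), Slc12a7 (5.29) and Fxyd3 (-4.68) (list median 1.89, all genes 0.16). Of all genes tested, 37.6%, 28.6%, 7.88% and 46.7% were called in these comparisons, in the order given.

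Nonsensory epithelial-like cells had 8 of 13 higher than stromal-like cells and 2 lower, with log2 fold changes of 7.002 for Kcnj16, 6.20 for Fxyd3, 5.13 for Kcnj10 and -3.88 for Fxyd5 (list median 0.91, all genes -0.05). Reissner-like cells had 4 of 12 higher and 4 lower than these, with 6.75 for Nkain3, 4.68 for Nkain2, -5.27 for Kcnj16 and -4.68 for Kcnj10 (list median -0.14, all genes -0.02). Macrophage-like cells had 4 of 8 higher and 1 lower than stromal-like cells, among them Fxyd5 (1.76), Atp2b1 (0.90) and Nkain4 (-4.90) (list median 0.26, all genes 0.006). Of all genes tested, 55.4%, 45.8% and 58.3% were called in these comparisons, in the order given. With age none of 12 genes tested in stromal-like, 11 in nonsensory epithelial-like, 7 in macrophage-like and 9 in Reissner-like cells was called. The shares of all genes called there were 2.7%, 1.13%, 0.129% and 2.05%. In SC-like cells Kcnj16 (-2.003) and Kcnj10 (-1.53) were lower in Coch + Tmx P33, as 2 of 6 tested, beside 6.2% of all genes tested.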

How the data were processed

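Per the labels, the study's methods and the file headers, the authors prepared libraries with Chromium 3′ v2 chemistry, sequenced them on an Illumina HiSeq and aligned reads to mm10 with Cell Ranger (version not given in the sources used here). They deposited UMI counts per gene and barcode, not normalised, in 1 matrix per library. Barcodes under 500 genes (1954) or at 25% or more mitochondrial UMIs (84) and 41 scored doublets were left out. The others were clustered with scanpy 1.11.5 (2000 variable genes, 30 components, 15 neighbours, Leiden resolution 1.0) without Atoh1, the members and the 25 other transport genes. A cluster was named from at least 3 detected listed markers. Within each library the UMI counts of a class were added up and tested with edgeR 4.0.16 (R 4.3.3; filterByExpr, TMM, quasi-likelihood, Benjamini-Hochberg over all genes tested, threshold 0.05), with library as a block between classes and a minimum of 10 cells, or 5 where fewer than 2 libraries reached 10. These steps were tested on simulated data. β shares were compared by exact permutation over libraries. Intervals and floors (95%, 3 counts) cover counting error only. DESeq2 1.42.0, no filter, stricter cell filters, other clusterings and leaving out libraries were tried. Named genes were the 5 members, up to 4 transport genes with the largest fold past the threshold in each comparison and the 5 genes most like each member (mean of at least 10 CPM). Some genes that these rules name and the catalytic subunits are not reported here. The members and lists were chosen with earlier results of these data known. No paired design was assumed, because same-numbered libraries of different groups deviated together in no steady way (r from -0.148 to 0.153). 0 columns of other series were present.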

Additional observations from a re-analysis of the deposited data

How the results depend on the processing

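Of 158 counts of called members or shares under the alternatives, 130 stayed within 1.5 times the count reported, 20 were lower and 8 higher. With DESeq2, 1 member was called between cHC-like and SC-like cells, 2 with age in stromal-like cells and 0 in SC-like cells. Without the filter on low counts, 2 were called with age in stromal-like, 1 in nonsensory epithelial-like and 1 in macrophage-like cells. Under 10% mitochondrial UMIs, 0 were called between cHC-like and SC-like cells and 0 with age in SC-like cells. Leiden resolution 1.5 left 0 between HC-like and SC-like cells, the P12 libraries alone 1, and the Otol1 cluster alone 1 with age, settings of which the last 2 were chosen after seeing the data. Leaving out each library gave 0 to 2 calls for HC-like against SC-like, 0 to 3 for cHC-like against HC-like, 0 to 1 with age in stromal-like, macrophage-like and SC-like cells and 1 to 3 in Reissner-like cells. The share of all genes called under each alternative, here and below, is not given, so these counts cannot be read as above the background. For cHC-like against SC-like and neuron-like against glia-like cells it was not run, since 1 pair of libraries would have been left without residual degrees of freedom. The 10% mitochondrial limit was not run for HC-like against SC-like or cHC-like against HC-like cells, nor clusters present in every library for the stromal-like, nonsensory epithelial-like and SC-like classes.

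The replicate block called 1 member with age in nonsensory epithelial-like cells, Fxyd6 (log2 fold change -1.58, adjusted p = 0.0441 by edgeR), and changed no other count of members by over 1.5 times. The labels' numbers do not pair libraries across groups.

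Of 985 single values, 29 changed sign, and of these only Atp1b1 in SC-like cells was past the threshold (Leiden 1.5, log2 fold change -2.01, adjusted p = 0.00446 by edgeR). The other log2 fold changes that changed sign were -0.64 for Atp1b2 in cHC-like against SC-like cells (10% mitochondrial), -0.052 for Atp1b2 in HC-like against SC-like cells (no filter), 0.35 (Leiden 1.5) and 0.47 (block) for Fxyd1 and -0.14 for Atp1b2 (Otol1 cluster) with age in nonsensory epithelial-like cells, and -0.26 for Fxyd1 in SC-like cells (Leiden 1.5). In shares they were -7.60 (10% mitochondrial) and -5.29 points (thinned) for Atp1b2 in cHC-like against SC-like, -3.85 for Atp1b3 in cHC-like against HC-like (thinned) and 0.942 for Atp1b2 in HC-like against SC-like cells (Leiden 1.5), and with age -0.253 (10% mitochondrial) and -1.95 (Leiden 1.5) for Atp1b3 and -0.562 for Atp1b2 (thinned) in nonsensory epithelial-like and -5.23 for Atp1b3 in Reissner-like cells (thinned). Leaving out each library gave ranges across 0 for log2 fold changes of Atp1b2 in HC-like against SC-like cells (-0.20 to 0.40), with age of Atp1b3 in stromal-like cells (-0.014 to 0.25), and in SC-like cells of Atp1b1 (-0.33 to 0.88), Fxyd1 (-4.57 to 2.35) and Fxyd6 (-0.46 to 2.76). In shares the ranges were -6.11 to 8.44 points for Atp1b3 in cHC-like against HC-like cells, -3.23 to 1.91 for Atp1b1 in macrophage-like against stromal-like cells, and with age -7.21 to 9.13 for Atp1b3 in stromal-like and -0.144 to 0.902 in nonsensory epithelial-like cells. The cause was not tested.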

Other observations

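Clusters without a cell type name differed in which β gene led. A cluster led by Agr3 and Krt18, the latter a keratin of simple epithelia (80 cells), held 1198 CPM of Atp1b1 against 72.9 CPM of Atp1b2 and 63.6 CPM of Atp1b3. In a cluster led by Npy and Notum (653 cells) Atp1b1 was at 51.2 CPM and Atp1b3 at 250 CPM, with 473 CPM of Fxyd1 and 602 CPM of Fxyd6. A cluster led by Otor and Rarres1, which came almost wholly from the P12 libraries (710 cells), held 256 CPM of Atp1b3, 204 CPM of Fxyd1 and 567 CPM of Fxyd6. In a cluster led by Ptgds and Slc6a13 (38 cells) Fxyd6 was at 16.5 CPM while Fxyd1 was at 214 CPM.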
